A study of Homo sapiens with 8 samples.

Results

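The probe sets for eukaryotic translation initiation factors (eIFs) were described in 786-O, an established human line from a renal cell carcinoma that lacks functional VHL. The cells had been exposed to 25 μM pentamidine, or to the vehicle DMSO alone, for 6 h. A probe set was a member when the array annotation gave it a single gene symbol that begins with EIF. The eIF2alpha kinases, whose symbols begin with EIF2AK, were left out. This gave 112 members of 44942 probe sets, 83 on the first array type and 29 on the second. They covered 48 gene symbols, 42 on the first type, 20 on the second and 14 on both. Of the members, 110 belonged to protein-coding genes, and the other 2 belonged to EIF3J-DT, a divergent transcript, and EIF3LP3, a pseudogene.

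Each array type carried 2 DMSO and 2 pentamidine arrays. The labels name no genetic change beyond the line itself, and the groups differed only in the 6 h treatment. The labels call the samples biological duplicates and do not say whether the second array type carried the same RNA, so the types were never pooled and p-values measure only the spread between these arrays. Pentamidine is a diamidine drug given against infections with protozoa and Pneumocystis.

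Initiation factors bring the small ribosomal subunit, the initiator tRNA and the mRNA together at a start codon. eIF2 carries the initiator tRNA and is recharged with GTP by eIF2B, eIF4F recognises the mRNA cap and unwinds the leader, eIF3 is the multi-subunit scaffold that holds the small subunit to the mRNA, and eIF5 and eIF5B act when the large subunit joins. Their activity is known to be set largely by phosphorylation and by binding proteins, which an array of transcripts does not measure. In bulk RNA, fewer transcripts per cell and a different mixture of cells cannot be told apart.

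Many transcripts of the translation machinery start with a C followed by an unbroken run of pyrimidines, the 5' terminal oligopyrimidine motif known for its control through mTORC1 and LARP1. The start sites of the members were therefore read from RefSeq (GRCh38.p14). Of 46 protein-coding EIF genes on the arrays, 39 had a start site in the table. A C at the start followed by at least 4 more bases that are each C or T, on the transcribed strand, was found in 9 of the 39 genes (23.1%) and in 988 of 15842 protein-coding genes in the table (6.24%). The minimum length of 5 was chosen after the EIF start sequences had been seen. The windows of these 9 genes are shown because they belong to several different complexes, with 15 bases before the start, 15 from the start, and the run in capitals:
EIF2A, chr3:150546772-150546801 (+): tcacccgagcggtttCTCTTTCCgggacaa
EIF2D, chr1:206612451-206612480 (-): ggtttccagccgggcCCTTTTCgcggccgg
EIF2S3, chrX:24054941-24054970 (+): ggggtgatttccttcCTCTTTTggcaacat
EIF3D, chr22:36529152-36529181 (-): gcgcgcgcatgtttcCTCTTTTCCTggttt
EIF3F, chr11:7987322-7987351 (+): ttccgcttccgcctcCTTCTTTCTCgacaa
EIF3K, chr19:38619173-38619202 (+): ttccgtttccaccacCTCTTCCTgttcccg
EIF3M, chr11:32583816-32583845 (+): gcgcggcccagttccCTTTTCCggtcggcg
EIF4A2, chr3:186783562-186783591 (+): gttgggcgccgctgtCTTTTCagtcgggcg
EIF4B, chr12:53006441-53006470 (+): ttgcctcatccgggtCTTTTgcgttctctt

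The longest runs, of 10 bases, were those of EIF3D and EIF3F, and the shortest, of 5, that of EIF4B. EIF4A1, the paralog of EIF4A2, had a run of only 3 bases at the start, under the minimum of 5. EIF3I, a further eIF3 subunit, had no run that begins at the start base. The windows of EIF4A1 and EIF3I are shown for comparison:
EIF4A1, chr17:7572810-7572839 (+): aggcgggcactccgccctagtttctaagga
EIF3I, chr1:32222392-32222421 (+): accttttccggtcttactcacgttgcggcc

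The deposited values were linear probe set intensities, compared here as log2(value + 16), so each fold change is on that scale and understates the change of dim probe sets. Probe sets with a low mean were left out, which kept 15550 of the first type and 15804 of the second, and 82 and 27 of the members. The members not tested were EIF1 212225_at on the first type, and EIF4E 237718_at and EIF4ENIF1 242291_at on the second. The 2 arrays per group limit the precision of every value, and the smallest exact 2-sided p that 2 against 2 can give is 0.333. Of the genes listed as markers of a renal carcinoma line, VIM, PAX8, KRT8 and KRT18 were bright on all arrays of the first type. CDH6 was at 281 to 408 units there, and PAX2 was dim at 36.4 to 87.2 units. The 13 markers of leukocytes, endothelium, stroma and red cells lay between 1.09 and 72.8 units.

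One DMSO array gave the highest 3' to 5' ratios of the control transcripts, a measure of RNA or cDNA integrity. For ACTB the ratio on the first type was 1.22 on DMSO array 1, 0.999 on DMSO array 2, and 1.11 and 1.10 on the pentamidine arrays. On the second type it was 1.47, 1.27, 1.23 and 1.21 in the same order. GAPDH gave 0.966 and 0.861 with DMSO and 0.908 and 0.824 with pentamidine on the first type, and 0.843 and 0.806 against 0.716 and 0.677 on the second. DMSO array 1 was thus the highest of the 4 arrays for both controls on both types. For both controls the DMSO arrays of the second type lay above the pentamidine arrays, and the part of this in the values of that type was not tested. On the first type DMSO array 1 was the lowest array for 31% of all probe sets tested. Without it the fold change turned its sign for 17 of the 82 members tested on the first type and for 7 of the 27 on the second. The value without it is given below for each of the 15 members of the first type whose DMSO arrays lay over 0.4 apart on the log2 scale, and for some others.

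**Figure D1:**
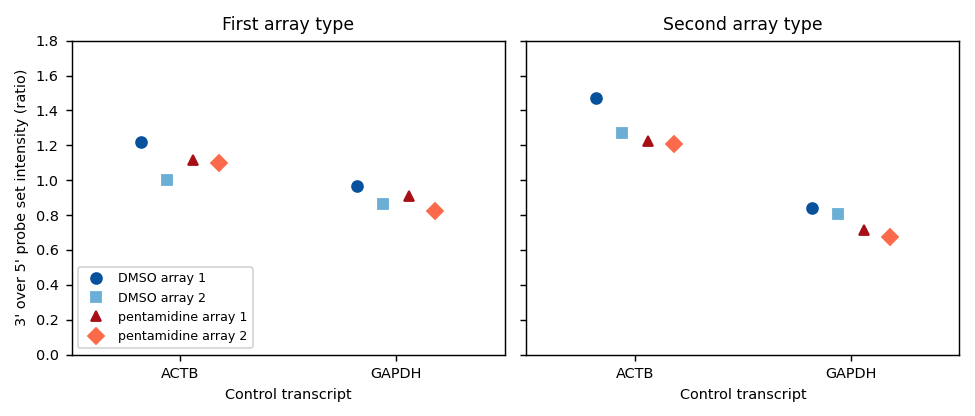
Ratio of the 3' to the 5' probe set intensity (no unit) of the control transcripts ACTB and GAPDH, 1 point per array, for the first and the second array type. DMSO array 1 has the highest ratio of each control on both types, for ACTB at 1.22 and 1.47, and on the second type both DMSO arrays lie above both pentamidine arrays.

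The first comparison asked whether initiation factor transcripts differ with the drug on the first array type. None of the 82 members tested passed limma's adjusted p of 0.05, where 0% of all probe sets passed. The members lay on both sides of DMSO, 40 above and 42 below, with a median fold change (log2) of -0.0022. Their fold changes ran from -0.31 to 0.69. Over all probe sets the median was 0.02 and 53.9% lay above DMSO. Taking the brightest probe set of each of the 42 genes, 24 lay above DMSO and 18 below, with a median of 0.04. When each array was centred on its median instead, the median of all probe sets moved from 0.02 to -0.07, and 25 of the 82 members lay above DMSO. The smallest adjusted p of any member was 0.888. An unadjusted p under 0.05 was found for 5 of the 82 members, against 5.13% of all probe sets, namely for EIF4A1 201530_x_at, EIF2S3, EIF5A 201123_s_at, EIF5A2 and EIF3I. With a constant prior variance in limma, the unadjusted p of these 5 was 0.119 to 0.246.

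Most members were measured closely enough to bound the difference. The 95% confidence interval (CI) of the fold change lay inside a 2-fold change either way for 77 of 82 members (93.9%), and inside a 1.5-fold change for 63 (76.8%). With a constant prior variance 73 lay inside a 2-fold change. Over all probe sets the shares were 70.4% and 38.8%, but intervals are narrower for bright probe sets and 72 of the 82 members lay above the median level. Among probe sets above that level, the shares inside a 2-fold change were 97.2% of the members and 97.9% of all, and inside a 1.5-fold change 84.7% and 73.0%. The 5 members whose interval reached beyond a 2-fold change were EIF2S1 201143_s_at, EIF4G2 217607_x_at, EIF4EBP2 208769_at, EIF5A 201123_s_at and EIF5B 214313_s_at.

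The treatment difference was set beside the gaps between replicates. It compares means of 2 arrays, which vary less than the single arrays that a gap compares. The median absolute gap between the DMSO arrays was 0.15 on the log2 scale, that between the pentamidine arrays 0.15, and the median absolute treatment difference 0.14. Over all probe sets these were 0.23, 0.21 and 0.17. Above the median level they were 0.131, 0.140 and 0.138 for the members and 0.158, 0.142 and 0.120 for all. The treatment difference exceeded both gaps for 20 members (24.4%), against 21.4% of all probe sets. Among probe sets above the median level the shares were 26.4% of the members and 21.4% of all. Both pentamidine arrays lay above both DMSO arrays for 16 members, where the share over all probe sets was 19.4%, and below them for 17, where it was 15.7%. Together 33 members (40.2%) had groups that did not overlap, against 35.2% of all probe sets. Above the median level these shares were 43.1% of the members and 36.0% of all. In the plot of fold changes on the first array type, most intervals cross 0.

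**Figure D2:**
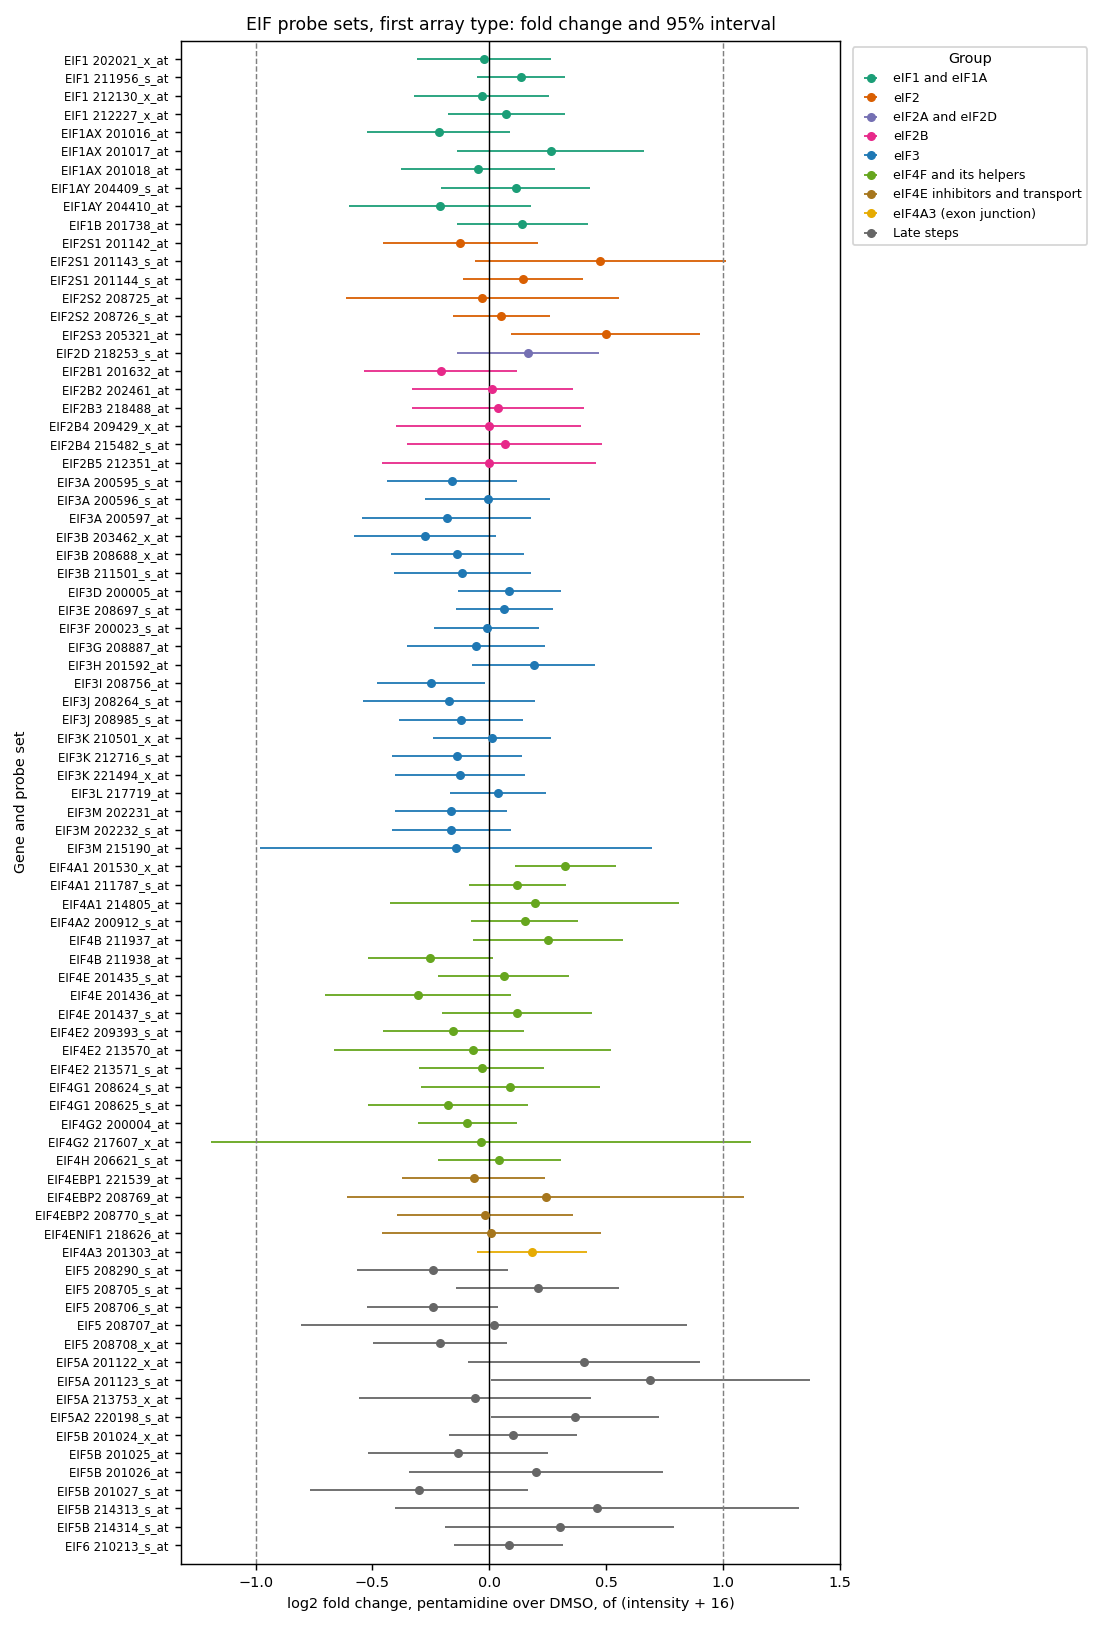
Log2 fold change of pentamidine over DMSO, of (intensity + 16), for the 82 EIF probe sets tested on the first array type, 1 row per probe set, coloured by complex. Points are limma estimates from 2 arrays per group, bars are 95% intervals and dashed lines mark a 2-fold change, inside which 77 of the 82 intervals lie.

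The factors that fix the start codon came first. EIF1, which keeps the scanning ribosome open until it reaches a start codon, measured 15032 and 15044 units with DMSO and 17383 and 15719 with pentamidine with its brightest probe set. Both pentamidine arrays lay above both DMSO arrays, with a log2 fold change of 0.14 (95% CI -0.05 to 0.32, limma adjusted p = 0.888). Quantile normalization turned the sign, to -0.04. The other tested EIF1 probe sets gave -0.03, -0.02 and 0.07. EIF1B, its close paralog, gave 0.14. EIF1AX, the X-linked gene for eIF1A, measured 1308 and 1199 units with DMSO and 1051 and 1100 with pentamidine, a log2 fold change of -0.22 (95% CI -0.52 to 0.09). Its other probe sets gave -0.05 and, with 201017_at, 0.26, so the probe sets of EIF1AX did not share a direction. Without DMSO array 1 the value of 201017_at was -0.00063. In all, 5 of the 10 probe sets of this group, including those of the Y-linked copy of eIF1A, lay above DMSO, with a median of 0.02.

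Of the 6 probe sets of the eIF2 subunits 4 lay above DMSO, where the share over all probe sets was 53.9%. EIF2S3 encodes the gamma subunit, which binds GTP and the initiator tRNA. It measured 2508 and 4355 units with DMSO and 4762 and 4583 with pentamidine. The groups did not overlap, and the log2 fold change was 0.50 (95% CI 0.09 to 0.90, limma adjusted p = 0.888). Without DMSO array 1 it was 0.10 (95% CI -0.20 to 0.40). On the second array type, other probe sets of EIF2S3 gave 0.01 and -0.05, with DMSO values of 15550 and 16621 and pentamidine values of 16389 and 16099 units for the brighter.

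EIF2S1 encodes the alpha subunit, whose phosphorylation lowers initiation under stress. Its brightest probe set, 201144_s_at, measured 2303 and 2316 units with DMSO and 2608 and 2498 with pentamidine, a log2 fold change of 0.14 (95% CI -0.11 to 0.40). The dimmer 201143_s_at measured 326 and 628 units with DMSO and 573 and 708 with pentamidine, with overlapping groups and a log2 fold change of 0.48 that fell to 0.02 without DMSO array 1. The third, 201142_at, gave -0.12. EIF2S2, the beta subunit, measured 7106 and 7032 units with DMSO and 7369 and 7283 with pentamidine, a log2 fold change of 0.05 that median centring turned to -0.05. Its dimmer probe set gave -0.03, and 0.32 without DMSO array 1.

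The guanine nucleotide exchange factor eIF2B was measured for all 5 subunits. Its 6 probe sets lay 3 above and 3 below DMSO, between -0.21 and 0.07, and each of the 6 intervals lay inside a 1.5-fold change. EIF2B5, the catalytic epsilon subunit, measured 225 and 218 units with DMSO and 234 and 210 with pentamidine, a log2 fold change of -0.0013 (95% CI -0.46 to 0.46). The lowest was EIF2B1, the alpha subunit, at -0.21, which was -0.06 without DMSO array 1. EIF2D, which can deliver tRNA to the ribosome outside the usual route, gave 0.17 (95% CI -0.14 to 0.47).

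The eIF3 subunits lay mostly below DMSO on the first array type. Of 21 probe sets of 12 subunit genes, 16 lay below and 5 above, with a median fold change (log2) of -0.13, against 46.1% below over all probe sets. Of the 21, 20 lay above the median level, where 51.8% of all probe sets lay below DMSO. None passed the adjusted threshold, and 20 of the 21 intervals lay inside a 1.5-fold change. All probe sets lay below DMSO for 7 of the 12 genes and above for 4 (EIF3D, EIF3E, EIF3H and EIF3L), and those of EIF3K lay on both sides. Both pentamidine arrays lay below both DMSO arrays for 8 of the 21, where the share was 15.7% over all probe sets and 19.3% over those above the median level. Leaving out each array in turn gave 14 to 16 probe sets below DMSO and a median of -0.14 to -0.07, with -0.07 without DMSO array 1 and -0.08 without pentamidine array 1. Median centring gave 20 below and a median of -0.22, and quantile normalization 15 and -0.11. With the brightest probe set of each gene, 8 of 12 lay below DMSO (median -0.09). Probe sets of 1 gene share their transcript and are not independent.

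EIF3I, a subunit that binds EIF3B and EIF3G in the mobile arm of the complex, measured 4384 and 4357 units with DMSO and 3713 and 3637 with pentamidine. Both groups were tight and did not overlap. The log2 fold change was -0.25 (95% CI -0.48 to -0.02, limma adjusted p = 0.888). With a constant prior variance the interval was -0.65 to 0.15. Across the arrays left out in turn the fold change ran from -0.26 to -0.23. EIF3B, the scaffold of that arm, measured 2876 and 2499 units with DMSO and 1963 and 2488 with pentamidine with 203462_x_at, a log2 fold change of -0.28 (95% CI -0.58 to 0.03). Its brightest probe set, 208688_x_at, measured 3012 and 2981 units with DMSO and 2424 and 3063 with pentamidine. Those groups overlapped, since pentamidine array 2 was the highest, and the log2 fold change was -0.14. The remaining EIF3B probe set gave -0.12, and EIF3G gave -0.06.

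EIF3A, the largest subunit and the platform of the complex, measured 4212 and 3507 units with DMSO and 3172 and 3730 with pentamidine, a log2 fold change of -0.16 (95% CI -0.44 to 0.12) with overlapping groups. The other EIF3A probe sets gave -0.18 and -0.0077. EIF3J, a loosely bound subunit, measured 526 and 505 units with DMSO and 454 and 458 with pentamidine with 208264_s_at (-0.17). With 208985_s_at it measured 2374 and 2213 in DMSO and 2055 and 2161 with pentamidine (-0.12). In both the pentamidine arrays lay below the DMSO arrays. EIF3M lay below DMSO in all 3 probe sets, at -0.17, -0.16 and -0.14. For the brighter ones, pentamidine array 1 lay lowest, at 5317 and 3169 units, while pentamidine array 2, at 6331 and 3682, lay close to the lower DMSO array, at 6323 and 3712. The subunits above DMSO were EIF3H at 0.19, EIF3D at 0.08, EIF3E at 0.06 and EIF3L at 0.04.

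**Figure D3:**
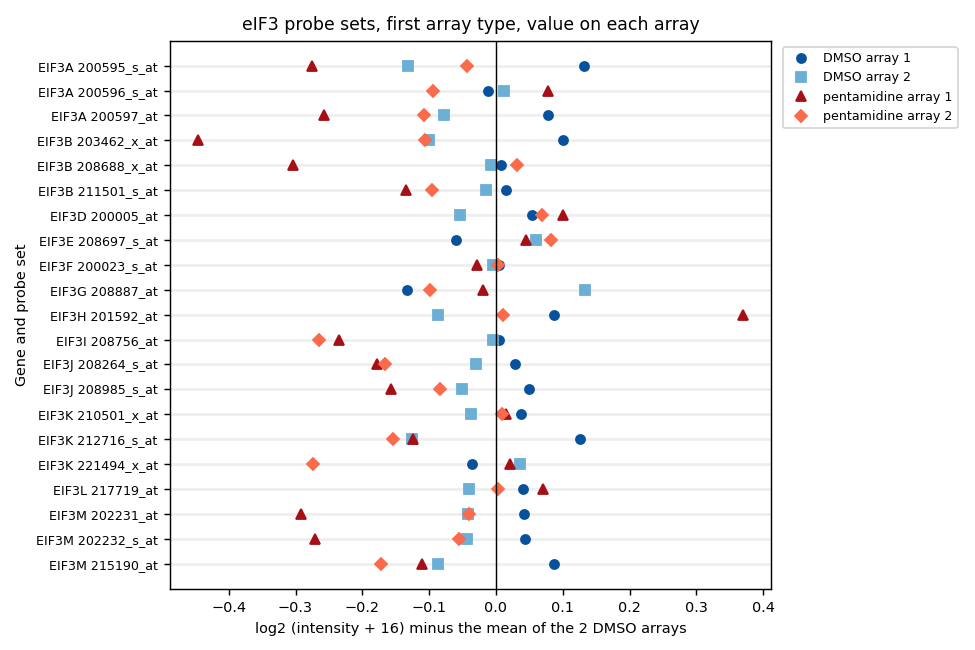
Level of each of the 21 eIF3 probe sets on each of the 4 arrays of the first type, as log2 (intensity + 16) minus the mean of the 2 DMSO arrays, 1 row per probe set. For 16 of the 21 the mean of the pentamidine arrays lies below 0, and pentamidine array 1 is the lowest array for EIF3B, for 2 of the 3 EIF3A probe sets and for the brighter EIF3M probe sets.

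The second array type tested 6 of the eIF3 subunit genes, EIF3B, EIF3C, EIF3D, EIF3F, EIF3K and EIF3M. Of their 8 probe sets 5 lay above DMSO, with a median of 0.08. The intervals of EIF3D and EIF3F lay inside a 2-fold change, and those of the other 6 probe sets did not. The difference between the array types was not tested. EIF3D and EIF3F are read by identical probe sets on both types. EIF3D measured 5738 and 5325 units with DMSO and 5929 and 5800 with pentamidine on the first type (0.08), and 22758 and 22183 against 24927 and 25304 on the second (0.16, 95% CI -0.08 to 0.40). The pentamidine arrays lay above the DMSO arrays on both types. EIF3F, at 4756, 4730, 4653 and 4755 units on the first type, gave -0.01, and at 15383, 15428, 15987 and 16188 on the second it gave 0.06.

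The eIF4A helicases lay above DMSO in all 5 of their probe sets on the first array type. EIF4A1 201530_x_at measured 9879 and 10377 units with DMSO and 13814 and 11663 with pentamidine. The groups did not overlap, and the log2 fold change was 0.33 (95% CI 0.11 to 0.54), with the smallest unadjusted p of all members (limma adjusted p = 0.888). With a constant prior variance the interval was -0.13 to 0.78. Leaving out each array in turn gave fold changes of 0.20 to 0.45. A probe set whose name ends in _x_at may also bind other transcripts. EIF4A1 211787_s_at measured 8165 and 9056 units with DMSO and 9411 and 9265 with pentamidine, a log2 fold change of 0.12 (95% CI -0.09 to 0.33), and 214805_at gave 0.19. The paralog EIF4A2, whose start holds a pyrimidine run, gave 0.15 (95% CI -0.08 to 0.38). EIF4A3, a core protein of the exon junction complex on spliced mRNA, gave 0.18 (95% CI -0.05 to 0.42). The 5 probe sets of these 3 genes were set together after their values were seen. All 5 also lay above DMSO with quantile normalization, at 0.05 to 0.22, and with median centring, at 0.02 to 0.23.

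For the cap-binding protein EIF4E the probe sets disagreed. The brightest, 201435_s_at, measured 1851 and 2091 units with DMSO and 2121 and 1986 with pentamidine, a log2 fold change of 0.06 that median centring turned to -0.04. A dimmer one, 201436_at, measured 474 and 409 units with DMSO and 340 and 368 with pentamidine, a log2 fold change of -0.31 (95% CI -0.70 to 0.09), the lowest of all members tested on the first type. The third gave 0.12. EIF4E2, a paralog that can repress translation, gave -0.15, -0.07 and -0.03.

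EIF4G1, the scaffold that bridges the cap and the ribosome, measured 1798 and 1313 units with DMSO and 1320 and 1392 with pentamidine, a log2 fold change of -0.18 (95% CI -0.52 to 0.16), and 0.09 with its other probe set. In both the DMSO arrays lay further apart than the groups did. The values turned to 0.05 and -0.16 without DMSO array 1. EIF4G2, a relative without the EIF4E-binding part, measured 9766 and 8734 units with DMSO and 8364 and 8940 with pentamidine, a log2 fold change of -0.09. The same probe set on the second type measured 33353 and 27430 units with DMSO and 29955 and 28368 with pentamidine (-0.05), which was 0.09 without DMSO array 1. No member carried the symbol EIF4G3 or EIF4EBP3.

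EIF4B stimulates the eIF4A helicase, and its probe sets went opposite ways. With 211938_at it measured 2994 and 2671 units with DMSO and 2263 and 2487 with pentamidine, without overlap and with a log2 fold change of -0.25 (95% CI -0.52 to 0.02). With 211937_at it measured 1677 and 2259 units with DMSO and 2217 and 2422 with pentamidine, a log2 fold change of 0.25 that was 0.04 without DMSO array 1. EIF4H, a related helper, gave 0.04.

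The proteins that hold EIF4E back lay on both sides of DMSO. EIF4EBP1, which binds EIF4E until mTORC1 phosphorylates it, measured 1286 and 1315 units with DMSO and 1337 and 1151 with pentamidine, a log2 fold change of -0.07 (95% CI -0.37 to 0.24). EIF4EBP2 measured 489 and 481 units with DMSO and 448 and 510 with pentamidine with its brighter probe set, a log2 fold change of -0.02. Quantile normalization gave 0.0060. The dim EIF4EBP2 208769_at measured 51.3 and 125 units with DMSO and 69.6 and 139 with pentamidine, a log2 fold change of 0.24 (95% CI -0.61 to 1.09) that was -0.29 without DMSO array 1. The groups overlapped in these probe sets of both genes. On the second type EIF4EBP2 224645_at measured 1208 and 1331 units with DMSO and 1606 and 1444 with pentamidine (0.26, 95% CI -0.21 to 0.73), where the pentamidine arrays lay above the DMSO arrays. With 224653_at it measured 2846 and 2010 against 2255 and 2199, and the log2 fold change of -0.10 was 0.15 without DMSO array 1. EIF4ENIF1, which carries EIF4E into the nucleus, gave 0.0082.

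Among the factors of late steps, 10 of 16 probe sets lay above DMSO, with a median of 0.09. Without DMSO array 1 the count was 8 of 16 and the median 0.01. EIF5, which makes eIF2 hydrolyse its GTP, measured 3998 and 5665 units with DMSO and 6340 and 4762 with pentamidine with its brightest probe set, a log2 fold change of 0.21 (95% CI -0.14 to 0.55) with overlapping groups. With 208706_s_at it measured 1925 and 1781 units with DMSO and 1540 and 1584 with pentamidine (-0.24, 95% CI -0.52 to 0.04), and with 208290_s_at 2084 and 1588 against 1568 and 1502 (-0.24). In these 2 probe sets, and in 208708_x_at, which gave -0.21, the groups did not overlap. The dim 208707_at gave 0.02. Without DMSO array 1 the brightest probe set, 208705_s_at, gave -0.04, and thus lay below DMSO with 208706_s_at (-0.19), 208290_s_at (-0.05) and 208708_x_at (-0.06), while 208707_at gave 0.28.

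EIF5B, the GTPase that joins the ribosomal subunits, had 6 probe sets, 4 above and 2 below DMSO. Its brightest measured 2248 and 2311 units with DMSO and 2639 and 2266 with pentamidine, a log2 fold change of 0.10 (95% CI -0.17 to 0.37). The others ran from -0.30 to 0.46. Without DMSO array 1 the value of 201027_s_at went from -0.30 to 0.08, that of 201026_at from 0.20 to -0.0019 and that of 214314_s_at from 0.30 to 0.57. EIF6, which keeps the large subunit from joining too early, measured 3761 and 3860 units with DMSO and 4109 and 3965 with pentamidine, a log2 fold change of 0.08 that median centring turned to -0.01.

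EIF5A is modified with hypusine, made from the polyamine spermidine, and helps ribosomes past difficult stretches. Its highest fold change came from 201123_s_at, which measured 473 and 1328 units with DMSO and 1372 and 1215 with pentamidine. DMSO array 1 was low, and the other 3 arrays lay together. The log2 fold change was 0.69 (95% CI 0.01 to 1.37, limma adjusted p = 0.888) and -0.04 without DMSO array 1. With 201122_x_at, EIF5A measured 270 and 466 units with DMSO and 472 and 479 with pentamidine, a log2 fold change of 0.41 that became 0.03. The last EIF5A probe set, 213753_x_at, gave -0.06. EIF5A2, its paralog, measured 601 and 769 units with DMSO and 874 and 886 with pentamidine, a log2 fold change of 0.37 (95% CI 0.01 to 0.72, limma adjusted p = 0.888), and 0.19 without DMSO array 1. On the second type EIF5A2 lay below DMSO with other probe sets. These measured 1804 and 1642 units with DMSO against 1311 and 1565 (-0.26), and 11415 and 10583 against 10016 and 11039 (-0.06).

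Several of the highest fold changes on the first array type were smaller without DMSO array 1. A wide gap between the DMSO arrays makes such a shift follow by arithmetic, and 2 DMSO arrays cannot show which of them is off. The DMSO arrays lay over 0.4 apart on the log2 scale for 15 of the 82 members, a limit chosen after the values were seen. DMSO array 1 was the lower in 10 of them. Over all probe sets with so wide a gap it was the lower in 2747 of 4609, and above the median level in 813 of 1228. The share of members with so wide a gap, 18.3%, compares with 29.6% of all probe sets and 15.8% of those above the median level. DMSO array 1 was the lowest of the 4 arrays for 27 of the 82 members (32.9%). In the plot of these 15 probe sets, DMSO array 1 lies far from the other 3 arrays for EIF5A, EIF2S1 and EIF2S3.

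Fitted without DMSO array 2, so that DMSO array 1 alone stood for the controls and was assumed to vary like the pentamidine arrays, 494 probe sets passed the adjusted threshold (3.18% of 15550). Of the members 5 passed, 4 of them above DMSO. EIF5A 201123_s_at had a log2 fold change of 1.42, EIF2S3 205321_at 0.89, EIF2S1 201143_s_at 0.93 and EIF5A 201122_x_at 0.78. The member below was EIF5B 201027_s_at, at -0.68. With 1 control array, this fit holds no spread between controls, so its adjusted p-values are not given. Without DMSO array 1 in place of array 2, those log2 fold changes were -0.04, 0.10, 0.02, 0.03 and 0.08, and 5 probe sets passed in the whole table. The part of the higher 3' to 5' ratio of DMSO array 1 in these values was not tested.

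**Figure D4:**
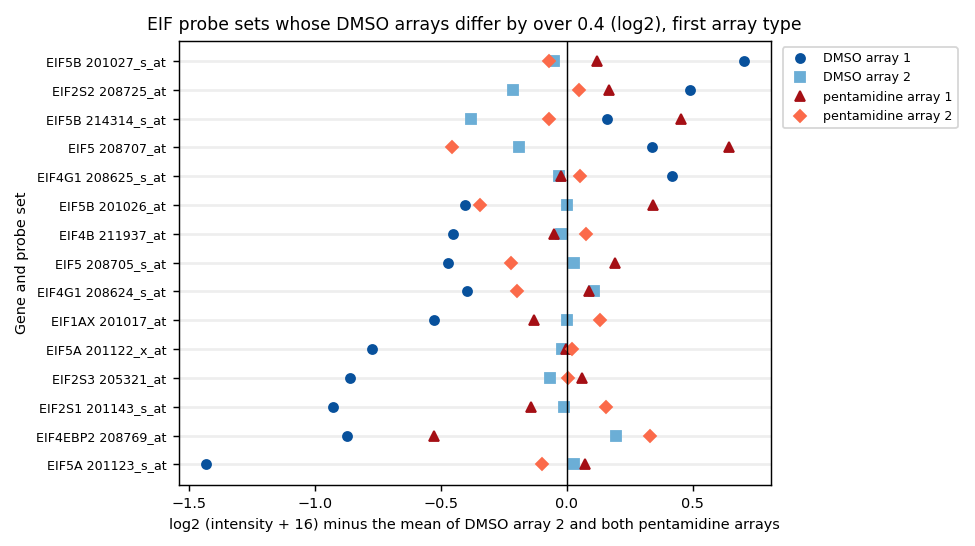
Level on each array of the first type for the 15 EIF probe sets whose DMSO arrays lie over 0.4 apart, as log2 (intensity + 16) minus the mean of DMSO array 2 and both pentamidine arrays. DMSO array 1 is the lower DMSO array in 10 of the 15, against 2747 of 4609 such probe sets over all tested. For EIF5A 201123_s_at it lies 1.46 below DMSO array 2.

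The second comparison asked the same on the second array type, where 7 of 27 members lay at or under the median level, against 10 of 82 on the first. None of the 27 members tested passed limma's adjusted p of 0.05, where 0.00633% of all probe sets passed, and none had an unadjusted p under 0.05, against 5.1% of all. Above DMSO lay 14 members and below it 13, against 51.1% above over all probe sets, and the median fold change (log2) was 0.0084. With median centring 8 lay above DMSO, as the median of all probe sets moved from 0.01 to -0.10. The 95% interval was contained in a 2-fold change for 16 of the 27 members, and for 10 with a constant prior variance. Of the 20 members above the median level 16 (80.0%) had such an interval, against 54.3% of all probe sets at that level, and of the 7 at or under it 0 had one. Both pentamidine arrays lay above both DMSO arrays for 5 members, where the share over all probe sets was 17.4%, and below them for 4, where it was 16.7%. Together 9 members (33.3%) had groups that did not overlap, against 34.2% of all probe sets, and DMSO array 1 was the lowest array for 9 members, where the share over all was 25.8%. The median absolute gap was 0.14 between the DMSO arrays and 0.22 between the pentamidine arrays, and the median absolute treatment difference was 0.15. Over all probe sets these were 0.51, 0.53 and 0.38. Above the median level they were 0.10, 0.19 and 0.10 for the members and 0.29, 0.28 and 0.23 for all.

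**Figure D5:**
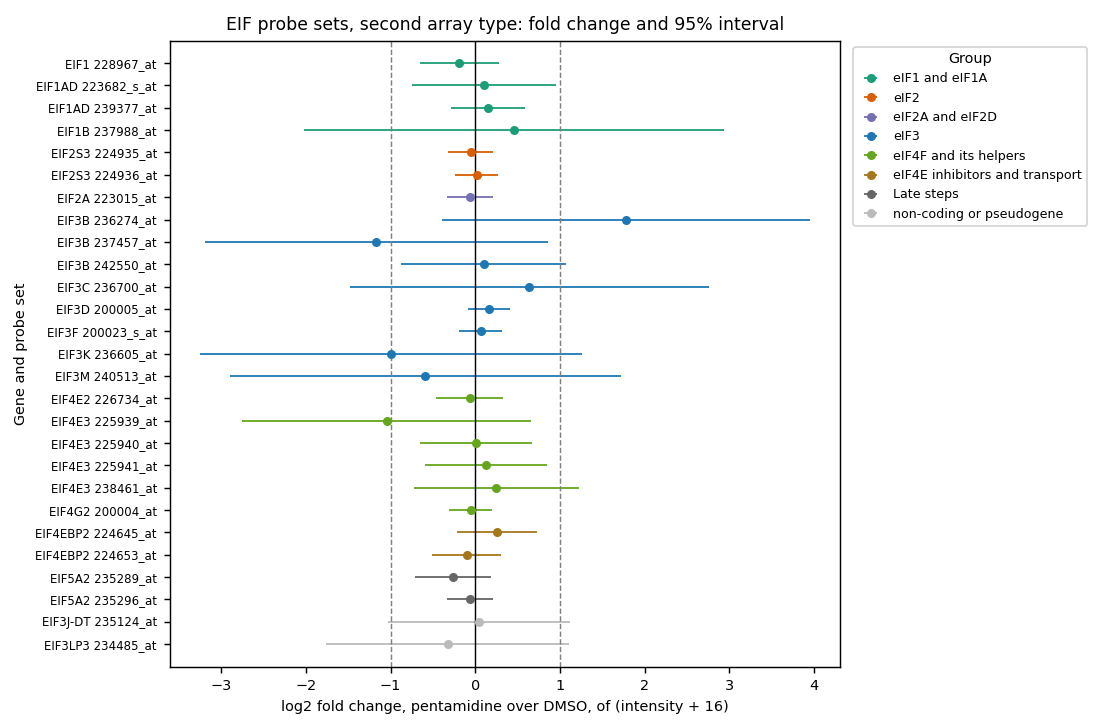
Log2 fold change of pentamidine over DMSO, of (intensity + 16), for the 27 EIF probe sets tested on the second array type, 1 row per probe set, coloured by complex. Points are limma estimates from 2 arrays per group, bars are 95% intervals and dashed lines mark a 2-fold change, and the widest intervals belong to dim probe sets of EIF3B, EIF3C, EIF3K, EIF3M, EIF1B and EIF4E3.

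The widest fold changes on the second type came from dim probe sets of genes with several probe sets. EIF3B 236274_at measured 42.3 and 48.8 units with DMSO and 202 and 188 with pentamidine. The groups were far apart, with a log2 fold change of 1.78, but the 95% interval ran from -0.39 to 3.95 (limma adjusted p = 0.902). EIF3B 237457_at went the other way, at 259 and 162 units with DMSO and 207 and 27.4 with pentamidine (-1.17), and the brighter 242550_at gave 428 and 373 against 277 and 658 (0.10). The 3 EIF3B probe sets of the first type lay between -0.28 and -0.12.

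EIF4E3, a cap-binding paralog of EIF4E measured only on the second type, was likewise divided. With 225939_at it measured 228 and 271 units with DMSO and 64.3 and 189 with pentamidine (-1.04, 95% CI -2.75 to 0.66). With 238461_at it measured 294 and 415 units with DMSO and 379 and 462 with pentamidine (0.25), and its brighter probe sets gave 0.0084 and 0.13. EIF3K, at 316 and 73.8 units with DMSO and 167 and 24.9 with pentamidine, gave -0.997, which was -0.06 without DMSO array 1. EIF3M, at 129 and 127 against 261 and 17.0, gave -0.59. In both, the replicate arrays of a group lay further apart than the groups. EIF3C, at 104 and 62.2 against 110 and 164, gave 0.64.

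The 20 members of the second type above the median level had log2 fold changes from -0.33 to 0.26, and 10 of their intervals lay inside a 1.5-fold change. EIF2A, which despite its name is not a subunit of eIF2, measured 9681 and 9722 units with DMSO and 9153 and 9367 with pentamidine, a log2 fold change of -0.07 (95% CI -0.34 to 0.20). EIF1 measured 1489 and 1534 units with DMSO and 1227 and 1432 with pentamidine (-0.19), where the first type gave 0.14 with another probe set. EIF1AD, named for its eIF1A-like domain, measured 2027 and 2173 units with DMSO and 1844 and 2929 with pentamidine (0.15). The transcripts EIF3J-DT and EIF3LP3 gave 0.04 and -0.33, and -0.31 and 0.23 without DMSO array 1.

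Members with a pyrimidine run at the start were compared with the rest by their counts. On the first type the genes with a run had 13 probe sets of 8 genes, 6 above DMSO, with a median fold change (log2) of -0.01. Those without a run had 59 probe sets of 27 genes, 30 above, with a median of 0.0082. On the second type the counts were 3 of 7 above (median -0.05) and 10 of 18 above (median 0.05). Genes with a run lay on both sides of DMSO on both types, with values from -0.25 for EIF4B to 0.50 for EIF2S3 on the first.

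Other genes of translation were read from a list of 49, with the brightest probe set for each gene. On the first type 39 were tested, 21 above and 18 below DMSO with a median of 0.05, and 0 passed limma's adjusted p of 0.05, while 2 had an unadjusted p under 0.05. The list of eIF2alpha kinases and opposing phosphatase subunits also holds GCN1 and IMPACT, which act on the kinase GCN2. Of its 6 genes tested, EIF2AK2 and GCN1 lay above DMSO, and without DMSO array 1 also EIF2AK1. EIF2AK2, the kinase PKR that senses double-stranded RNA, measured 512 and 491 units with DMSO and 569 and 789 with pentamidine, a log2 fold change of 0.41 (95% CI 0.01 to 0.81, limma adjusted p = 0.888). Another EIF2AK2 probe set on the second type gave -0.26 (95% CI -1.34 to 0.82). Of the genes around mTORC1 and the MNK kinases, 7 of 12 lay above, and 9 of 12 without DMSO array 1. RPS6KB2, a ribosomal protein S6 kinase, measured 39.2 and 87.9 units with DMSO and 103 and 129 with pentamidine (0.80, 95% CI 0.03 to 1.56, adjusted p = 0.888). DMSO array 1 was the lowest there too, and the value without it was 0.34.

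Poly(A)-binding proteins and their partners lay above DMSO in 4 of 6, with PABPC4 at -0.22. Helicases and recycling factors lay above in 1 of 5, and in 2 of 5 without DMSO array 1, with MCTS1, a partner of DENR in tRNA release, at -0.19. Elongation and termination factors lay above in 6 of 7, with a median of 0.07. Without DMSO array 1 the count was 5 of 7 and the median 0.02. EEF1A1, which delivers tRNA to the elongating ribosome, measured 19423 and 18376 units with DMSO and 22098 and 20593 with pentamidine, a log2 fold change of 0.18 (limma adjusted p = 0.888). Another EEF1A1 probe set on the second type gave -0.08. Of the enzymes that make hypusine on EIF5A, DHPS gave -0.23 (95% CI -0.64 to 0.18). DOHH was dim, read with 1 of its 3 probe sets at 60.2 and 32.2 units with DMSO and 103 and 68.5 with pentamidine. Its log2 fold change was 0.73 (95% CI -0.09 to 1.55).

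On the second type 19 genes of the list were tested, 6 above and 13 below DMSO with a median of -0.08, and 0 passed or had an unadjusted p under 0.05. The 3 eIF2alpha kinases, the phosphatase subunit PPP1R15B and IMPACT, tested there, lay below DMSO, from -1.87 for EIF2AK3 to -0.02 for IMPACT. EIF2AK3, the kinase PERK of the endoplasmic reticulum, was dim there, at 186 and 136 units with DMSO and 44.7 and 21.7 with pentamidine (-1.87, 95% CI -4.26 to 0.51). Its brighter probe set on the first type measured 943 and 1142 units with DMSO and 817 and 1165 with pentamidine (-0.09, 95% CI -0.48 to 0.30). RPS6KB1, at 2447 and 1830 units against 1528 and 1999, gave -0.27 on the second type, and -0.07 without DMSO array 1. Another RPS6KB1 probe set on the first type went the other way, at 161 and 149 units with DMSO and 201 and 200 with pentamidine (0.34, 95% CI -0.15 to 0.83). EEF2, the elongation factor that moves the ribosome along, measured 24178 and 24157 units with DMSO and 22473 and 22317 with pentamidine (-0.11), while another EEF2 probe set on the first type gave 0.15.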

How the data were processed

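Biotin-labelled cRNA from total RNA of 786-O cells was hybridised to 2 types of Affymetrix array, per the labels' protocols. The authors deposited linear probe set intensities, and the submitters' processing notes name Affymetrix Expression Console, whose version and algorithm are not given in the sources. With 2% trimmed from each end, the arrays of the first type had a mean of 500.2 and those of the second 500.1.

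Symbols came from the array annotation (1 symbol for 19730 of 22277 and 13588 of 22665 probe sets), updated by gene ID to RefSeq (GRCh38.p14), which 19713 and 13548 matched. EIF probe sets with several symbols (8 and 1), those of EIF2AK genes (4 and 4) and control probe sets (62 and 88) were left out. Pentamidine was compared with DMSO within each type on log2(value + 16) with limma 3.58.1 in R 4.3.3 (lmFit, eBayes with a variance trend, no block, Benjamini-Hochberg over all probe sets, threshold 0.05), over probe sets whose mean log2 value reached the 30th percentile. The written rule also allows the mean of the linear values, which was tried first. The log2 mean was kept after both had been seen, because it gave the same call as an earlier fit of these data. The fit was also run on simulated data with independent normal noise of its own fitted spread. Such a run cannot show how well the intervals hold for these arrays. Lists were described by counts, with no test.

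The members, lists, tests and the variance trend were chosen with earlier results of these data known. Named with every array's value were, per type, the 6 members above and 6 below DMSO with the largest moderated t, and the brightest probe set of 20 genes chosen by role. Array values were also given for members that met neither rule. Among these were EIF3J, EIF3D on the first type, EIF3F, EIF2A, EIF4B 211937_at, EIF4A1 211787_s_at and EIF4EBP2 208769_at, which no stated rule chose. Of other translation genes, the one with the largest moderated t was named in each list with at least 3 tested. DOHH, DHPS and the values set beside these genes from the other type were chosen after they were seen.

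Alternatives were a constant or robust prior variance, quantile normalization, median centring, offsets of 1 and 64, no filter or a 50th percentile filter, a replicate block, leaving out each array, and 1 probe set per gene. The filter on the linear mean, and alternatives for eIF3 and other translation genes, were added after the data were seen. Replicate numbers were not used as pairs in the main fit. Deviations of same-numbered arrays correlated at 0.0037 and 0.013 across probe sets. This shows no large shared deviation, but it cannot show whether the samples were prepared as pairs. Arrays of the first type correlated at 0.971 to 0.984 and those of the second at 0.820 to 0.859, and none held identical values. One further control transcript is not reported here.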

Additional observations from a re-analysis of the deposited data

How the results depend on the processing

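No named EIF probe set passed the adjusted threshold under an alternative that kept all arrays. Without DMSO array 2, EIF2S1 201143_s_at, EIF2S3 205321_at and both EIF5A probe sets named above passed. On the first array type 0 probe sets passed, and 8 with the replicate block, although no deviation shared by same-numbered arrays was seen. On the second type 1 passed, against 8 with the replicate block, 0 with a constant prior variance, and 2 each with a robust prior, an offset of 64, no filter, and the filter on the mean of the linear values. Leaving out each array in turn gave 0 to 494 on the first type and 0 to 112 on the second. The cause of these shifts was not tested.

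Median centring moved the EIF median of the first type to -0.099 with 25 above DMSO, and left 8 above on the second. With 1 probe set per gene, fewer are counted: on the first type 24 lay above DMSO, 41 had an interval inside a 2-fold change and 17 had groups that do not overlap, and on the second 9 lay above and 5 did not overlap. A constant prior left 10 intervals inside a 2-fold change on the second type. Leaving out each array in turn, which leaves 1 array in a group, gave 48 to 63 members without overlap on the first type and 16 to 22 on the second, 36 to 48 and 13 to 14 above DMSO, medians of -0.041 to 0.048 and -0.014 to 0.0020, and 70 to 77 and 14 to 15 intervals inside a 2-fold change.

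Of 517 values of 52 named probe sets with all arrays kept, 8 turned their sign. Quantile normalization did so for EIF1 211956_s_at (-0.041), EIF4EBP2 208770_s_at (0.0060) and EIF2S3 224936_at (-0.025). Median centring did so for EIF2S2 208726_s_at (-0.046), EIF4E 201435_s_at (-0.037), EIF6 (-0.014), EIF2S3 224936_at (-0.095) and EIF3B 242550_at (-0.013).

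With 1 array left out, 19 of 208 values turned their sign. On the first type the ranges were -0.076 to 0.074 for EIF2B5, -0.027 to 0.15 for EIF4E 201435_s_at, -0.40 to 0.045 for EIF4G1, -0.044 to 0.46 for EIF5 208705_s_at, -0.041 to 1.42 for EIF5A 201123_s_at, -0.30 to 0.031 for EIF3B 208688_x_at, -0.11 to 0.072 for EIF4EBP2 208770_s_at, -0.0084 to 0.21 for EIF5B 201024_x_at and -0.17 to 0.040 for EIF4EBP1. On the second they were -0.033 to 0.063 for EIF2S3 224936_at, -0.35 to 0.15 for EIF4EBP2 224653_at, -0.19 to 0.088 for EIF4G2, -0.13 to 0.0063 for EIF5A2 235296_at, -0.18 to 0.48 for EIF1AD, -2.35 to 0.013 for EIF3B 237457_at, -0.50 to 0.70 for EIF3B 242550_at, -2.08 to 0.084 for EIF3K and -2.12 to 0.95 for EIF3M. The other 31 named probe sets kept their direction under every alternative run. Signal near background limits the dim probe sets of the second type, where 0 of the 7 members at or under the median level had an interval inside a 2-fold change. On the first type 7 of 10 such members had one.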
